A study of Homo sapiens with 36 samples.

Results

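Mucins are large, heavily O-glycosylated proteins made by epithelial cells, and 7 mucin genes were examined here in A549 cells kept for weeks with or without interleukin-1β (IL-1β). The 7 are the gel-forming MUC5B and MUC5AC and the membrane-anchored MUC1, MUC4, MUC13, MUC16 and MUC20. They were taken by matching these symbols to the Ensembl identifiers of the count tables, and all 7 were found among 63677 listed genes. A549 is an established human lung adenocarcinoma line, grown here in RPMI medium with 10% FBS and split every few days. The study asked whether long exposure to an inflammatory cytokine leaves epithelial cells changed after the cytokine is gone. Cells received IL-1β at 1 ng/ml and were collected on days 6, 15 and 21, or received it for 21 days and were collected 6, 15 and 30 days after it was taken away. Untreated control cells were collected at each of these 6 times, which makes 12 groups of 3 libraries and 36 libraries in all. All groups come from a single cell line, and the labels call the 3 libraries of a group biological replicates without saying how the cultures were separated, so p-values measure the spread between these libraries.

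The gel-forming mucins are secreted as long disulfide-linked polymers, swell into the mucus layer of the airways and are carried upward by cilia. MUC5B is the main gel-former of the submucosal glands and small airways, whereas MUC5AC comes mainly from goblet cells of the surface epithelium and is known for its rise in asthma and after inflammatory stimuli. The membrane mucins stay at the apical cell surface, where they form a barrier, shed their ectodomains and, in MUC1, MUC4 and MUC13, can signal through the cytoplasmic tail or a partner receptor.

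Between 9116032 and 23570026 reads per library lay on genes (median 15902700), and 19180 genes had enough reads to be tested. In 11 libraries, 6 of control and 5 of IL-1β cells, mitochondrial genes took 11.8% to 24.6% of these reads, against 5.61% to 7.75% in the other 25. Where a call of a mucin or a gene named with them was lost without these 11, the loss is stated, with the value over the other 25 for genes above the floor. Of 5 epithelial markers (EPCAM, KRT8, KRT18, KRT19, CDH1), 4 had enough reads to be tested. KRT19 did not, and it passed 3 reads in only 1 library, a day 21 control with 4 reads. The summed level of the 5 ran from 2901 to 7624 CPM (read counts relative to library size, scaled between libraries) in control cells, from 899 to 1740 CPM during exposure and from 1085 to 5142 CPM after withdrawal. Epithelial identity was seen in KRT8 and KRT18, which alone do not show the labelled lung origin. In control libraries 6 alveolar type 2 markers summed to 0.592 to 2.06 CPM and 3 club cell markers to 1.78 to 21.1 CPM. There 5 goblet cell markers summed to 72.3 to 234 CPM, with AGR2 and SPDEF tested. In the controls of day 21 most of this sum was AGR2 alone. Among these markers, the alveolar and airway regulator NKX2-1, the club cell gene SCGB1A1 and the goblet cell genes FOXA3, TFF3 and CLCA1 had 3 or fewer reads in all libraries. The leukocyte markers PTPRC and CD3E were also at that floor in all libraries, and CD68 and CSF1R, which mark macrophages, were above it in at least 1 library but too low to be tested. The known IL-1β targets CXCL8, CCL2, NFKBIA and TNFAIP3 all rose at days 6, 15 and 21, with log2 fold changes of 6.91, 3.77, 1.89 and 3.21 at day 21 (edgeR quasi-likelihood, Benjamini-Hochberg adjusted p of 2.33e-11, 2.24e-07, 1.13e-07 and 4.73e-11).

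Untreated A549 cells expressed the mucin genes at very different levels. Per kilobase of exon, the median over the 18 control libraries was 8.83 CPM for MUC5B, with a range of 3.90 to 39.6. It was 2.52 for MUC1 (0.536 to 4.50), 1.20 for MUC13 (0.842 to 1.87), 0.0825 for MUC20 (0.0188 to 0.142), 0.0302 for MUC16 (0.0110 to 0.114) and 0.00735 for MUC4 (0 to 0.0217). The ranges of neighbours in this order overlapped, except those of MUC13 and MUC20. MUC5AC, at 4.79 CPM per kilobase, is left out of the order, because the annotation used gives it 5930 exon bases and may lack part of its long repeat-coding exon. On the same scale without length, MUC5B had a control median of 164 CPM and MUC5AC of 28.4 CPM, and the 7 genes together took 100 to 833 CPM of a control library.

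Both gel-forming mucins were lower in IL-1β cells. A gene was called changed with a fold change above 2 at a Benjamini-Hochberg adjusted p below 0.05 in edgeR's quasi-likelihood test over all tested genes. By this rule 2 of the 6 tested mucins were lower at day 15, where 2.3% of all tested genes were called lower, and 2 of 6 at day 21, where 2.06% were. They were MUC5B and MUC5AC on both days. After withdrawal 1 of 6, MUC5B, was still called lower at day 6, against 0.725% of all genes. At day 6 of exposure and at days 15 and 30 after withdrawal 0 of 6 were called, beside 1.25%, 0.36% and 0.464% of all genes called lower. At these 3 times 2, 3 and 2 mucins were lower at an unadjusted p below 0.05, as were 5.91%, 3.83% and 4.31% of all genes, and DESeq2's Wald test and edgeR's likelihood ratio test each called 0, 1 and 0. The median log2 fold change of the 6 genes was -0.52, -1.26 and -1.28 at days 6, 15 and 21 and -0.87, -0.81 and -0.38 at days 6, 15 and 30 after withdrawal, while the median of all tested genes stayed between -0.02 and 0.02.

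**Figure D1:**
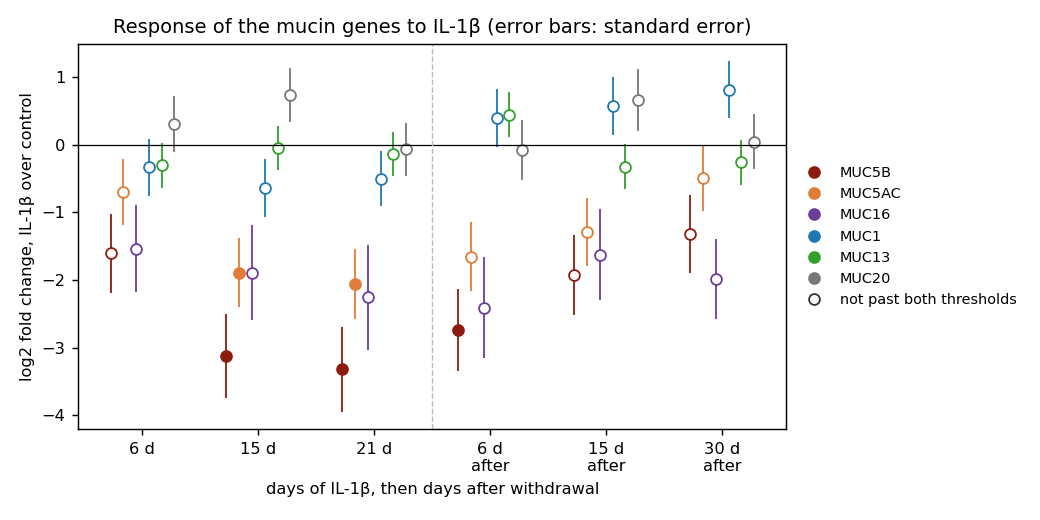
Log2 fold change of IL-1β over control cells (y axis) for the 6 tested mucin genes at days 6, 15 and 21 of IL-1β and days 6, 15 and 30 after withdrawal (x axis), with standard errors from the fit of 36 libraries. Filled points were called changed, which holds for MUC5B at days 15 and 21 and at day 6 after withdrawal and for MUC5AC at days 15 and 21, and MUC5B is lowest at day 21, at -3.32.

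MUC5B (ENSG00000117983, chr11:1244296-1283402 on the plus strand of GRCh37) had the most reads of the 7 genes. At day 6 the control libraries held 637, 736 and 156 CPM and the IL-1β libraries 291, 172 and 39.3 CPM. These groups overlapped, since the lowest control lay below both higher IL-1β libraries, and the log2 fold change of -1.61 (SE 0.58) was not called (adjusted p = 0.148). At day 15 the controls held 145, 92.7 and 298 CPM and the IL-1β cells 20.1, 15.2 and 26.4 CPM. At day 21 they held 119, 72.5 and 109 CPM and 7.98, 4.04 and 17.7 CPM. On both days all 3 IL-1β libraries lay below all 3 controls, which held for 13.9% and 15.2% of tested genes. MUC5B fell by 3.12 on the log2 scale at day 15 (SE 0.62, adjusted p = 0.00116) and fell by 3.32 at day 21 (SE 0.63, 95% interval -4.62 to -2.03, adjusted p = 0.000662), the latter a 10.0-fold difference of 100.3 ± 24.5 CPM in control and 9.89 ± 7.0 CPM in IL-1β cells (SD, n = 3).

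In the cells freed of IL-1β, the MUC5B level was higher at each later collection and remained below the controls. At day 6 after withdrawal the controls held 254, 98.6 and 172 CPM and the withdrawn cells 16.6, 22.5 and 39.6 CPM, with a log2 fold change of -2.73 (SE 0.61, adjusted p = 0.00839). At day 15 after withdrawal the values were 254, 279 and 142 CPM in control and 73.7, 44.2 and 59.9 CPM in withdrawn cells. At day 30 they were 253, 123 and 255 CPM and 81.9, 85.2 and 86.4 CPM. The groups did not overlap at any of the 3 times, where 5.24%, 4.9% and 5.11% of tested genes lay wholly lower. The log2 fold changes of -1.93 (SE 0.59) and -1.32 (SE 0.58) at days 15 and 30 were not called (adjusted p = 0.121 and 0.490), and their 95% intervals ran from -3.14 to -0.72 and from -2.504 to -0.13. The mean of the withdrawn cells went from 26.2 ± 11.9 CPM at day 6 through 59.3 ± 14.8 CPM to 84.5 ± 2.36 CPM at day 30 (SD, n = 3).

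The summed epithelial markers moved in the same direction as MUC5B, at 899 to 1740 CPM during exposure against 2901 to 7624 CPM in controls, and their part in the result was not tested. In bulk RNA, fewer cells that express a gene and less RNA per cell cannot be told apart. Over the 25 libraries of low mitochondrial share the MUC5B log2 fold change was -3.33 at day 15 (adjusted p = 0.00335), -2.93 at day 21 (adjusted p = 0.00795) and -2.61 at day 6 after withdrawal (adjusted p = 0.0854), where a single control library is left. Without replicate 1 in every group the calls were lost, at -3.21 (adjusted p = 0.0929), -3.03 (adjusted p = 0.124) and -2.12 (adjusted p = 0.787), and without replicate 2 the last of them was lost as well (-2.95, adjusted p = 0.0769).

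**Figure D2:**
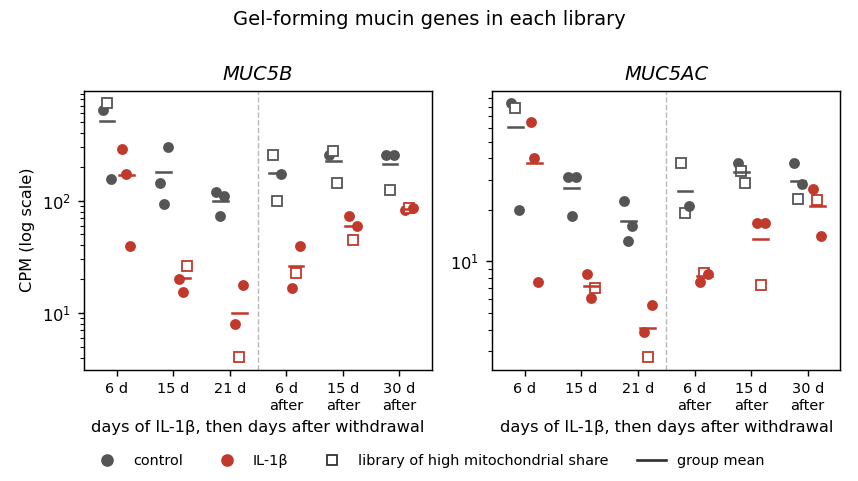
CPM on a log axis (y axis) of MUC5B and MUC5AC in each of the 36 libraries by time of collection (x axis), with group means as bars and libraries of high mitochondrial share as open squares. From day 15 of IL-1β to day 30 after withdrawal all IL-1β libraries of MUC5B lie below their controls, and at day 30 they sit between 81.9 and 86.4 CPM.

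MUC5AC (ENSG00000215182, chr11:1151580-1222364, plus strand) lies next to MUC5B in the mucin cluster of chromosome 11. At day 6 it held 83.5, 78.9 and 20.03 CPM in control and 64.8, 40.1 and 7.55 CPM in IL-1β cells, with overlapping groups and a log2 fold change of -0.70 (SE 0.49, adjusted p = 0.736). At day 15 the controls held 31.1, 18.3 and 30.9 CPM and the IL-1β cells 8.41, 6.16 and 7.04 CPM. At day 21 they held 22.4, 13.2 and 16.1 CPM and 3.86, 2.77 and 5.58 CPM. No IL-1β library reached a control on these days. MUC5AC fell by 1.89 on the log2 scale at day 15 (SE 0.51, adjusted p = 0.0204) and fell by 2.06 at day 21 (SE 0.52, 95% interval -3.14 to -0.99, adjusted p = 0.0111).

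MUC5AC was not called at any time after withdrawal by edgeR's quasi-likelihood test, whereas at day 6 after withdrawal it was called in 4 of 13 alternative fits, among them DESeq2's Wald test (-1.65, adjusted p = 0.0299) and the likelihood ratio test (-1.66, adjusted p = 0.0349). At day 6 after withdrawal the controls held 37.4, 19.3 and 21.0 CPM and the withdrawn cells 7.59, 8.58 and 8.40 CPM, without overlap (log2 fold change -1.66, SE 0.51, adjusted p = 0.0911). At day 15 the groups, 37.3, 33.7 and 28.6 CPM against 16.7, 7.27 and 16.7 CPM, were also apart (-1.29, SE 0.50, adjusted p = 0.337). At day 30 they overlapped, with 37.5, 23.2 and 28.2 CPM in control and 26.3, 23.0 and 14.1 CPM in withdrawn cells (-0.49, SE 0.49, 95% interval -1.504 to 0.51). Over the 25 libraries of low mitochondrial share the MUC5AC log2 fold changes were close to the values above, at -1.87 at day 15 and -1.83 at day 21, but not called (adjusted p = 0.0673 and 0.0833). They were also not called without replicate 1 (adjusted p = 0.275 and 0.365) or without replicate 2 (adjusted p = 0.10 and 0.168).

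The 2 neighbouring genes did not move by the same amount. The log2 ratio of MUC5B to MUC5AC was 2.93, 3.22 and 2.96 in control and 2.17, 2.10 and 2.36 in IL-1β cells at day 6. At day 15 it was 2.22, 2.33 and 3.27 against 1.25, 1.29 and 1.89, and at day 21 it was 2.40, 2.45 and 2.76 against 1.03, 0.53 and 1.64. The ratio was lower in IL-1β cells with no overlap on all 3 days. Over the 18 libraries of the exposure the mean difference was -1.14, with p = 0.00025 in a two-sided exact permutation test within time points, which is the smallest p that its 8000 assignments allow. The test treats the 18 libraries as separate cultures. Libraries of one replicate number may come from one serially passaged culture, in which case this p is too small. The joint edgeR fit also treats its 36 libraries as separate, and what such sharing does to its p-values was not tested. After withdrawal the mean difference was -1.14 at day 6, without overlap, and -0.52 and -0.73 at days 15 and 30, with overlap. Without the libraries of high mitochondrial share, the mean difference of the ratio over the exposure was -1.09. Its exact permutation p was 0.001, the smallest that its 1000 assignments allow.

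**Figure D3:**
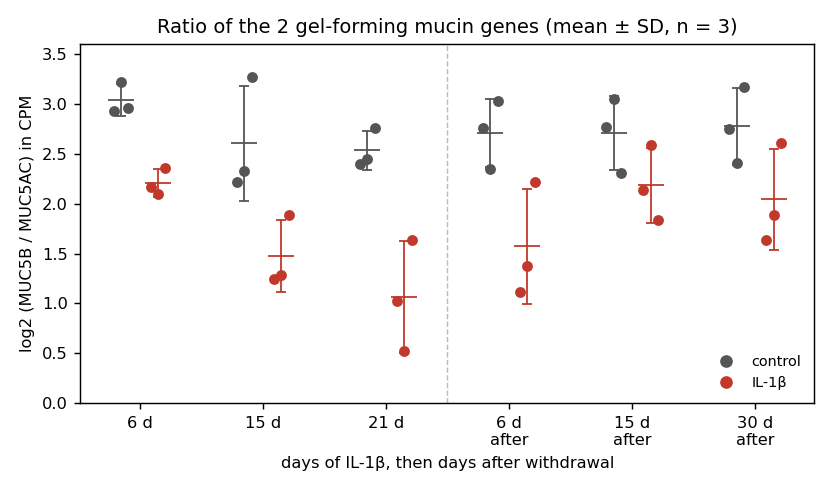
Log2 ratio of MUC5B to MUC5AC in CPM (y axis) for each library by time of collection (x axis), with the mean and SD of 3 libraries. Through day 6 after withdrawal the IL-1β points lie below the control points of the same time, and at day 21 the means are 2.54 in control and 1.06 in IL-1β cells.

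Across libraries the gel-forming pair varied together. Log2 CPM of MUC5B and MUC5AC had a Pearson r of 0.96 over the 36 libraries, 0.94 over the 18 control libraries and 0.95 over the 25 of low mitochondrial share, where the libraries share their culture, depth and treatment. Both genes ranged widely in untreated cells, from 72.5 to 736 CPM for MUC5B and from 13.2 to 83.5 CPM for MUC5AC, and the control of replicate 3 at day 6 stood well below the other two for both.

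MUC16 (ENSG00000181143, chr19:8959520-9121066, minus strand), which carries the CA125 antigen, was the membrane mucin with the lowest ratio of IL-1β to control cells. Its counts were small, between 0 and 102 reads per library and 3 or fewer in 6 libraries. At day 6 it held 1.504, 3.05 and 0.886 CPM in control and 0.828, 0.877 and 0.195 CPM in IL-1β cells. At day 15 the values were 0.651, 0.488 and 2.62 CPM against 0.501, 0.174 and 0.310 CPM, which overlapped. At day 21 they were 0.570, 0.603 and 1.27 CPM against 0.0543, 0 and 0.369 CPM, where the last group includes a library with 0 reads, a count that allows up to 3. The groups were apart at day 6 (as for 11.2% of all genes), at day 21 and at all 3 times after withdrawal, where the control means were 1.46, 1.53 and 3.34 CPM and those of withdrawn cells 0.287, 0.481 and 0.843 CPM.

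The log2 fold changes of MUC16 were -1.54, -1.89 and -2.26 at days 6, 15 and 21 and -2.41, -1.62 and -1.99 at days 6, 15 and 30 after withdrawal, with SEs of 0.59 to 0.78. None was called in edgeR's quasi-likelihood test (adjusted p = 0.278, 0.123, 0.0929, 0.0948, 0.419 and 0.112), while its unadjusted p ran from 0.00239 to 0.0245. DESeq2's Wald test called MUC16 lower at day 21 (-2.33, adjusted p = 0.0394) and at day 6 after withdrawal (-2.40, adjusted p = 0.0380). At day 15 its value rests on replicate 3, without which it was -0.69, and at day 6 it was -0.98 over the 25 libraries of low mitochondrial share. At day 30 after withdrawal the 95% interval of MUC16 ran from -3.21 to -0.76, beside -2.504 to -0.13 for MUC5B.

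**Figure D4:**
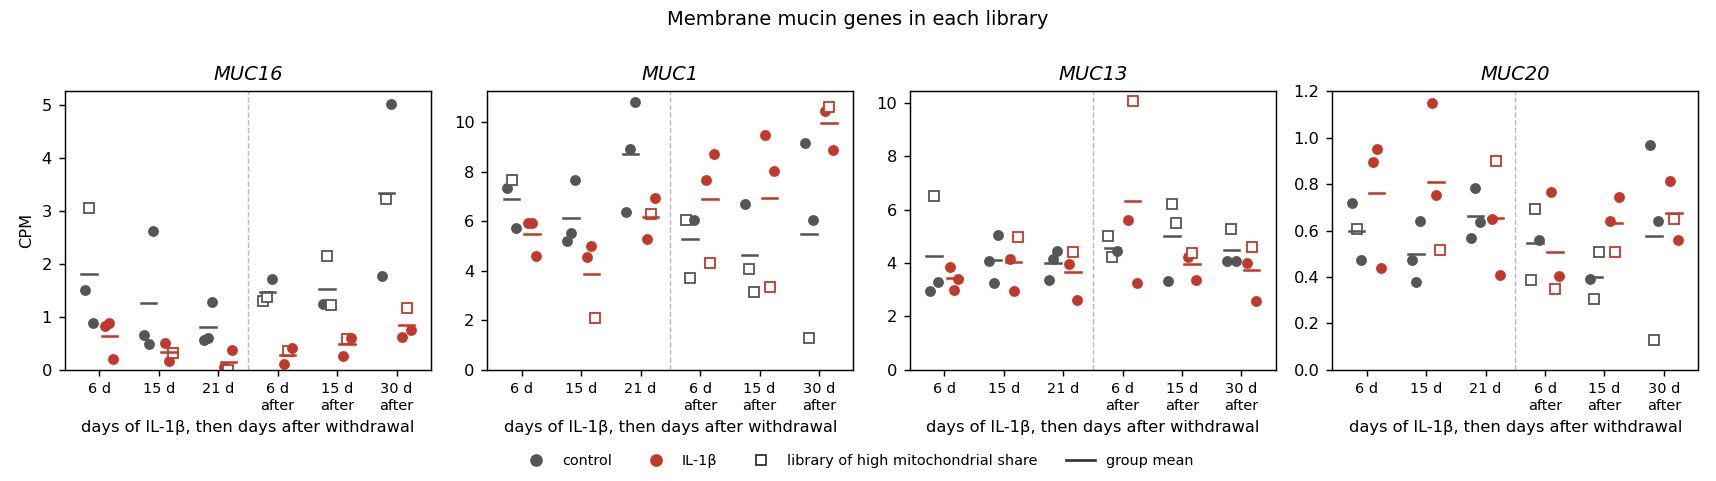
CPM (y axes, each from 0) of MUC16, MUC1, MUC13 and MUC20 in each library by time of collection (x axis), with group means as bars and libraries of high mitochondrial share as open squares. MUC16 lies lower in IL-1β cells at 5 of 6 times without overlap, and the lowest MUC1 value, 1.29 CPM, is a control of high mitochondrial share at day 30 after withdrawal.

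MUC1 (ENSG00000185499, chr1:155158300-155162707, minus strand), a membrane mucin whose tail binds signalling kinases and β-catenin, was not called at any time. During exposure its level was lower on average in IL-1β cells, with 8.70 ± 2.22 CPM in control and 6.16 ± 0.841 CPM in IL-1β cells at day 21 (SD, n = 3), from 6.38, 8.93 and 10.8 CPM against 5.27, 6.29 and 6.94 CPM. After withdrawal it was higher on average, with 9.14, 1.29 and 6.05 CPM in control and 10.5, 10.6 and 8.89 CPM in withdrawn cells at day 30. The log2 fold changes were -0.33, -0.64 and -0.50 at days 6, 15 and 21 and 0.39, 0.57 and 0.82 at days 6, 15 and 30 after withdrawal. The response at day 30 after withdrawal exceeded that at day 21 by 1.31 (SE 0.59, unadjusted p = 0.0335, adjusted p = 0.731). The library at 1.29 CPM had a high mitochondrial share, and without the 11 such libraries the log2 fold change at day 30 was 0.35. Log2 CPM of MUC1 had a Pearson r of -0.59 with the mitochondrial share over the 36 libraries (Spearman rho -0.32), with a median of 4.08 CPM in the 11 libraries and 6.69 CPM in the other 25.

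Promoter windows in RefSeq (GRCh38.p14) matched 4 of the 7 genes, MUC1, MUC4, MUC13 and MUC16. The windows of MUC16, the membrane mucin whose groups lay apart most often, and of MUC1, whose groups mostly overlapped, are shown for comparison. Each is the 250 bases before a transcript start, 5′ to 3′ on the minus strand. Capitals mark matches, on either strand, to TGANTCA (AP-1), CAGGTG (the E-box bound by SNAI2), GGGCGG (an SP1 box) or TGTTTAC (FOXA). The first MUC16 window is chr19:9065752-9066001, the second chr19:9010410-9010659, and the MUC1 window, the first of those found for this gene, chr1:155192916-155193165.
MUC16, first start: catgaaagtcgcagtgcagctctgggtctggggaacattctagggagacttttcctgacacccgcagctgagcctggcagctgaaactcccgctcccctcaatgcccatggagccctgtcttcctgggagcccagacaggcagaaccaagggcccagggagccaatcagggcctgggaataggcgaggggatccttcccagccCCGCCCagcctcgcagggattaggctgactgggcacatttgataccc
MUC16, second start: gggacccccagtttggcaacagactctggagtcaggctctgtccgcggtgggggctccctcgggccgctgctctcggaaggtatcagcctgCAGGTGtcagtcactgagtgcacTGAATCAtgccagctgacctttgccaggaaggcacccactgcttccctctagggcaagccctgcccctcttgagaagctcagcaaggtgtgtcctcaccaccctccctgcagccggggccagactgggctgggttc
MUC1: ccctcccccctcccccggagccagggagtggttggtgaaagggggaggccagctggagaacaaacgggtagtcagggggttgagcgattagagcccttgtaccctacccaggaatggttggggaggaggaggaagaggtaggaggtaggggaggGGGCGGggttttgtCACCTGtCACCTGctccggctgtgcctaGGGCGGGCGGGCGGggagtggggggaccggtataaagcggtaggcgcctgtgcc
The first MUC16 window held 1 SP1 box and none of the other motifs listed, and the second held 1 AP-1 and 1 E-box match. The MUC1 window shown held 2 E-box matches and 4 SP1 boxes, of which 3 overlap in a row. The other MUC1 window, chr1:155192910-155193159, held the same matches. Of the genes not shown, the MUC13 window held 1 AP-1 match and the MUC4 window 1 SP1 box, and neither held another of the listed motifs. Among 35116 windows of this length, 6.57% held the AP-1 letters, 17.5% the E-box, 42.6% the SP1 box and 2.98% the FOXA letters. A loose NF-κB pattern was also searched and is not listed, a choice made after its matches in windows of MUC1, MUC4 and MUC16 had been seen. These are matches of letters in a short window, and whether a factor binds there was not measured.

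MUC13 (ENSG00000173702, chr3:124624289-124672663, minus strand), a membrane mucin best known from the gut epithelium, gave log2 fold changes between -0.32 and 0.45 with SEs of 0.33 at all 6 times, and its groups overlapped at each. The control means ran from 4.00 to 5.01 CPM and the IL-1β means from 3.42 to 6.32 CPM. The highest library, at 10.1 CPM, was a withdrawn one at day 6 with a high mitochondrial share, and MUC13 had a Pearson r of 0.72 with that share over the 36 libraries (Spearman rho 0.57). At day 21 the 95% interval of the MUC13 difference, -0.81 to 0.54, left no room for a fall as large as the 2.06 measured for MUC5AC.

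MUC20 (ENSG00000176945, chr3:195447755-195467994, plus strand), a small membrane mucin that binds the MET receptor, had 1 to 23 reads per library. Its log2 fold changes ran from -0.08 to 0.74 and none was called, with adjusted p from 0.359 upward. At day 15 after withdrawal its 3 withdrawn libraries, at 0.641, 0.509 and 0.745 CPM, lay above the controls at 0.390, 0.306 and 0.508 CPM by a narrow gap, as did 6.02% of all genes. Of its exon bases, 27.1% also belong to the transcript MUC20-OT1 on the same strand, and reads from near-identical copies of this gene may be lost, so its level is uncertain. MUC4 (ENSG00000145113, chr3:195473636-195538844, minus strand), the membrane mucin that pairs with ERBB2, had 117 reads over the 36 libraries, 0 to 8 per library and 3 or fewer in 22, and was too low to be tested. Its highest group mean was 0.363 CPM, in withdrawn cells at day 6.

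The responses at different times were also compared directly. The MUC5B response at day 21 was lower than at day 6 by 1.72 on the log2 scale (SE 0.81, unadjusted p = 0.0442, adjusted p = 1.00), and that at day 30 after withdrawal was higher than at day 21 by 2.01 (SE 0.82, unadjusted p = 0.0206, adjusted p = 0.588). For MUC5AC the same differences were -1.36 (adjusted p = 1.00) and 1.57 (SE 0.71, unadjusted p = 0.0347, adjusted p = 0.738). Neither gene differed past the threshold, nor did any other tested mucin, and 0.0104% and 0.626% of all genes were called in these 2 comparisons. Between day 21 and day 6 after withdrawal, where 0.136% were called, the MUC5B and MUC5AC responses differed by 0.59 and 0.41 (adjusted p = 1.00 for both). Untreated cells of the last collection held less MUC5B and MUC5AC than those of the first, by log2 differences of -1.28 (SE 0.57) and -1.03 (SE 0.49), also uncalled (adjusted p = 1.00 for both, 0.0104% of all genes called). These differences in untreated cells were -0.64 and -0.64 over the 25 libraries of low mitochondrial share.

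Genes that act with mucins were read from lists of their roles. Among 17 other mucin-type genes, 8 had enough reads, and 6 (MUC7, MUC15, MUC17, MUC21, MUC22, MUCL1) had 3 or fewer reads in all libraries. The anti-adhesive sialomucin PODXL rose at day 6 (1.43) and day 15 (1.29), where 1.52% and 1.94% of all genes were called higher. OVGP1 fell by 1.65 at day 15, and over the 25 libraries of low mitochondrial share its value of -1.38 was not called (adjusted p = 0.112). At day 21, where 4.26% of all genes were called, 0 of the 8 were called by edgeR's quasi-likelihood test or DESeq2 and 1 by the likelihood ratio test, with 3 at an unadjusted p below 0.05, as were 13.7% of all genes. PODXL and OVGP1 are named after their values were seen. The gel-forming MUC2, on the same chromosome 11 cluster, held 0.184 ± 0.0143 CPM in control and 0.654 ± 0.216 CPM in IL-1β cells at day 21 (SD, n = 3), with a log2 fold change of 1.74 (SE 0.86, adjusted p = 0.373) that was not called. Its control level is near the floor of 3 reads per library, which is 0.157 CPM in these controls. MUC2 is named though not called, outside the rule for naming listed genes.

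Of 29 O-glycosylation enzymes, 23 were tested, with a median log2 fold change of 0.08 at day 21. There 1 of the 23 was called, beside 4.26% of all genes, a share near that background. It was ST6GALNAC1, lower in IL-1β cells, which adds sialic acid to the first sugar of mucin O-glycans. Its 3 control libraries held 6, 3 and 18 reads and its IL-1β libraries 0 each, at least 2.43-fold lower against a floor of 3 reads per library (adjusted p = 0.00624). The bound rests on the control with 18 reads, since without replicate 3 it was 1.35-fold and the call was lost (adjusted p = 0.204), as it was without replicate 1 (adjusted p = 0.128). At day 15, 1 was lower (B3GNT3, which extends core sugars, -1.42), beside 2.3% of all genes. At day 6 after withdrawal 1 was higher (the branching enzyme GCNT4, at least 2.197-fold higher against the same floor), beside 1.08%. GCNT4 was not called over the 25 libraries of low mitochondrial share, where a single control library is left. At day 30 after withdrawal 1 was lower (GALNT5, which starts O-glycan chains, -1.46, SE 0.36, adjusted p = 0.0369), beside 0.464%. B3GNT3 and GCNT4 are named after their values were seen. By DESeq2's Wald test 1 of the 23 was called at day 21.

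Of 23 goblet cell genes, 22 were matched, 11 had 3 or fewer reads in all libraries and 7 were tested. At day 21, 2 of the 7 were lower and 1 was higher, beside 2.06% and 2.19% of all genes. AGR2, a disulfide isomerase of the endoplasmic reticulum needed to fold gel-forming mucins, went from 86.3 ± 13.2 CPM in control to 7.61 ± 3.69 CPM in IL-1β cells at day 21 (SD, n = 3). It fell at days 6, 15 and 21, with log2 fold changes of -1.97, -2.99 and -3.49 (adjusted p = 0.00618, 5.87e-05 and 8.40e-06) and at day 6 after withdrawal with -2.26 (adjusted p = 0.00306). At days 15 and 30 after withdrawal its values of -1.62 and -1.56 were not called by edgeR's quasi-likelihood test (adjusted p = 0.0624 and 0.0858). At day 30 it was called in 5 of 13 alternative fits, among them DESeq2's Wald test (adjusted p = 0.0202) and the fit with the replicate number as a block (-1.61, adjusted p = 0.0115). FOXA1, a pioneer factor of airway epithelium, was called at the fold threshold at day 6 (-1.003, adjusted p = 0.01402) and day 21 (-1.0, adjusted p = 0.00990). Over the 25 libraries of low mitochondrial share neither was called, at -0.9985 and -0.97. FOXA1 was also called lower at days 6 and 30 after withdrawal, at -1.158 and -1.24 (adjusted p = 0.01003 and 0.00759). In the alternative fits its day 6 call held in 1 of 13 and that of day 6 after withdrawal in 9 of 13. CREB3L1, a transcription factor of secretory cells, rose by 1.85 at day 21 (SE 0.40, adjusted p = 0.00297). It was also called higher at day 15 (1.63, adjusted p = 0.0166) and at day 6 after withdrawal (1.565, adjusted p = 0.0295). The goblet cell regulator SPDEF, named after its values were seen, held 1.78 ± 0.742 CPM in control and 0.213 ± 0.217 CPM in IL-1β cells at day 21 (SD, n = 3), with a log2 fold change of -2.94 (SE 0.93, adjusted p = 0.0560). It was not called there by edgeR's quasi-likelihood test, but DESeq2's Wald test and the likelihood ratio test each called it.

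Genes of granule packaging and release, 17 of them tested, gave a median of -0.10 at day 21 with 0 called by edgeR's quasi-likelihood test, DESeq2 or the likelihood ratio test and 4 at an unadjusted p below 0.05, beside 4.26% and 13.7% of all genes. At day 15 and at day 6 after withdrawal 1 of the 17 was higher, beside 1.94% and 1.08% of all genes. It was SYTL2 (1.18 and 1.05, named after its values were seen), which tethers secretory vesicles. At day 30 after withdrawal 1 was lower, beside 0.464% of all genes. It was VAMP8, the vesicle SNARE of mucin release (-1.03, SE 0.27, adjusted p = 0.0465), which was not called over the 25 libraries of low mitochondrial share (-1.21, adjusted p = 0.0517). Of 14 partners and sheddases of membrane mucins, all tested, ERBB3, a receptor of the family that MUC1 and MUC4 bind, was lower at days 6, 15 and 21 (-2.09, -2.27 and -1.20, adjusted p = 0.000244, 9.78e-05 and 0.0428), with no other of the 14 called at these times, beside 1.25%, 2.3% and 2.06% of all genes called lower. Its day 21 call was lost over the 25 libraries of low mitochondrial share (-1.14, adjusted p = 0.132). DESeq2's Wald test called 1 of the 14 at each of these times as well. Over the alternative fits, AGR2 was called at day 21 in 13 of 13, ST6GALNAC1 and CREB3L1 each in 10 of 12, ERBB3 in 8 of 13 and FOXA1 in 4 of 13. At day 30 after withdrawal FOXA1 was called in 9 of 13, GALNT5 in 6 of 12, AGR2 and VAMP8 each in 5 of 13, ERBB3 in 4 of 13 and CREB3L1 in 2 of 12, of which AGR2, ERBB3 and CREB3L1 were not called there by edgeR's quasi-likelihood test.

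**Figure D5:**
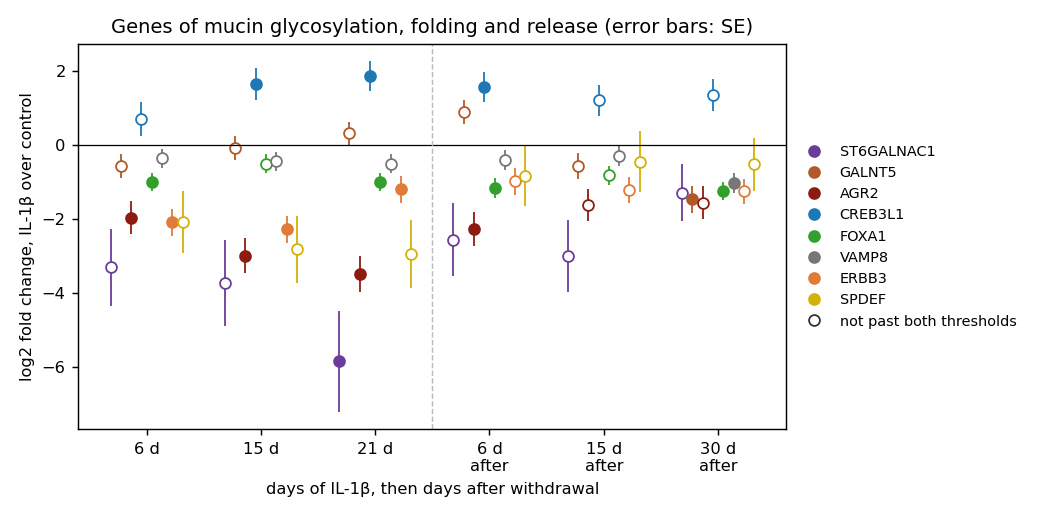
Log2 fold change of IL-1β over control cells (y axis) with standard errors for genes of mucin glycosylation (ST6GALNAC1, GALNT5), folding and regulation (AGR2, CREB3L1, FOXA1, SPDEF), release (VAMP8) and membrane partners (ERBB3) by time (x axis), filled where called. AGR2 is called lower at 4 of 6 times, and CREB3L1 lies above 0 at all 6.

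The genes whose levels ran closest to each mucin over the 36 libraries were listed by Pearson's r of log2 CPM. For MUC5B they were AGR2 (0.929), GLP2R (0.928), CDH1 (0.924), NEO1 (0.922) and PON3 (0.921), with values of 0.913 to 0.949 over the 25 libraries of low mitochondrial share, where only 1 of these 5 was still among the 5 closest, as were 2 by Spearman's rho over the 36. For MUC5AC they were GLP2R (0.877), WWC3 (0.873), NEO1 (0.868), IGF1R (0.867) and TNS4 (0.863), of which 1 was among the 5 closest over the 25 and 3 by Spearman's rho. For MUC1 they were PYM1, TNFRSF1A, SORBS3, SGSM2 and MMP17, at 0.900 to 0.910 over all libraries but 0.651 to 0.714 over the 25. For MUC13 they were CCNK, ENSG00000269069, XAGE1A, PROSER1 and PLP2, at 0.748 to 0.761 and 0.241 to 0.430. For MUC1 and MUC13, 0 of the 5 were among the 5 closest over the 25. The libraries share treatment, depth and culture, so these are descriptions. MUC16 had an r of 0.86 with MUC5B over all libraries and 0.57 over the controls.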

How the data were processed

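The authors sequenced single-end reads of 36 stranded mRNA libraries, aligned them to GRCh37 with TopHat2 2.0.14 (Bowtie2 2.2.5) and deposited raw counts per Ensembl gene from HTSeq 0.6.1, without normalization. These versions are from the submitters' processing notes, and the strand setting of the counting and the annotation release are not given in the sources used here. Groups, times and replicate numbers were taken from the labels. Identifiers were matched to GENCODE v44lift37 for 55665 genes, and exon lengths were computed from it.

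Genes passing edgeR's filterByExpr were kept, and edgeR 4.0.16 (R 4.3.3) quasi-likelihood models with TMM scaling with 1 term per group were fitted over the 36 libraries together (24 residual degrees of freedom). The SE of a log2 fold change is its size over the root of the F statistic. CPM used the same scaling, with a prior count of 2 for log2 CPM. A group with 3 or fewer counts in all its libraries was taken as at the floor, and floors and bounds cover counting error only. Reads on no gene were 8.48% to 18.6% and ambiguous reads 2.62% to 4.18% of each table, and neither entered library sizes.

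All 7 mucins were named. Genes of the other lists were named where called at day 21 or at day 30 after withdrawal, at most 4 per list, and the 5 genes of highest Pearson's r were named for each mucin with a median of at least 1 CPM. Members and lists were chosen with earlier results of these data known. Of 114 listed symbols, 112 were matched, and 1 listed gene is not reported here. The alternatives were DESeq2 1.42.0 (size factors, Wald test), total counts, no filter, at least 10 counts in every library, the likelihood ratio test, separate fits, a replicate block, leaving out each replicate, the 11 libraries of high mitochondrial share left out or as a covariate, and other thresholds. The models were tested on simulated data. Python 3.11.15 with pandas 2.3.3, scipy 1.17.1 and matplotlib 3.10.9 was used for summaries and figures.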

Additional observations from a re-analysis of the deposited data

How the results depend on the processing

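The directions of MUC5B, MUC5AC and MUC16 held in all alternatives at all 6 times, and the calls did not. Of the 6 mucins, 2 were called at day 15 and 2 at day 21, and on each day 1 was called over the 25 libraries of low mitochondrial share and 1 at an adjusted p below 0.01. With a replicate left out the count ran from 0 to 2 at day 15 and from 0 to 3 at day 21. MUC5B was called in 12 of 13 alternative fits on each day and MUC5AC in 10 of 13. At day 6 after withdrawal the count of 1 became 3 with DESeq2's Wald test or the likelihood ratio test, 2 with the mitochondrial share as a covariate, 0 in a separate fit or without the libraries of high share, and 0 to 2 when a replicate was left out. At day 15 after withdrawal 1 was called by DESeq2 and by the likelihood ratio test, and 0 to 1 when a replicate was left out. At day 30 after withdrawal 1 was called with the covariate, MUC16 (-2.03, adjusted p = 0.0299). The cause of these shifts was not tested, apart from the fewer libraries in the fits that leave some out.

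The replicate block changed no call of a mucin, with MUC5B at -3.35 (adjusted p = 0.00047) and MUC5AC at -2.01 (adjusted p = 0.0062) at day 21. The block fits a shift for each replicate number that all groups share, so it does not take up pairing within a time point. Libraries of the same number correlated at a mean of 0.28 in their deviations, and 4 of 18 pairs lay at 0.1 or below, so the numbers were not taken as a pairing. The tests at each time are therefore unpaired, and a paired test was not run. As a hint from the data that same-numbered libraries share something, 16 of 18 control and 14 of 18 IL-1β libraries correlated best with their own number, and all 3 pairs were above 0.1 at day 21 and at day 30 after withdrawal. At day 6 the IL-1β library lay below the control of the same number for all 3 numbers, by log2 differences of -1.13, -2.095 and -1.99 for MUC5B and -0.37, -0.97 and -1.39 for MUC5AC. Among the other named genes the block added calls at day 30 after withdrawal for AGR2 (-1.61, adjusted p = 0.0115) and CREB3L1 (1.34, adjusted p = 0.0203), and it took away those of FOXA1 at days 6 and 21 (-0.996 and -0.99, short of the fold threshold) and OVGP1 at day 15 (-1.56, adjusted p = 0.0515).

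Sign changes came in genes near 0. MUC13 at day 6 turned to 0.15 over the 25 libraries of low mitochondrial share and to 0.19 at day 15 after withdrawal, where a single control library is left. MUC20 turned to 0.085 at day 6 after withdrawal over the same 25, also with a single control library left. It turned to -0.25 at day 30 after withdrawal over the 25, and to -0.019 at day 30 with the likelihood ratio test. With a replicate left out, MUC13 ran from -0.59 to 0.22 at day 6, from -0.057 to 0.0058 at day 15, from -0.30 to 0.16 at day 21 and from -0.11 to 0.75 at day 6 after withdrawal, and MUC20 ran from -0.21 to 0.18 at day 21, from -0.67 to 0.21 at day 6 and from -0.25 to 0.40 at day 30 after withdrawal. MUC16, MUC20 and MUC4, with few reads, are limited by depth, and MUC16 has no value with at least 10 counts required in every library.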

Other observations

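E-cadherin (CDH1), the adhesion protein of epithelial junctions, went from 197 ± 14.7 CPM in control to 41.6 ± 19.0 CPM in IL-1β cells at day 21 (SD, n = 3). It was called lower at days 6, 15 and 21 and at day 6 after withdrawal, with log2 fold changes of -1.10, -1.73, -2.24 and -1.29 (edgeR quasi-likelihood, adjusted p = 0.0245, 0.000229, 7.15e-06 and 0.0105). The last of these was not called over the 25 libraries of low mitochondrial share (-1.37), where a single control library is left. MUC6, a gel-forming mucin of the stomach on the chromosome 11 cluster of MUC5B and MUC5AC, held 0.285 ± 0.163 CPM in control and 0.848 ± 0.499 CPM in IL-1β cells at day 21 (SD, n = 3), with a log2 fold change of 1.49 that was not called (adjusted p = 0.156). Its control level rests on few reads, since 3 reads per library are 0.157 CPM in these controls. MUC6 is also named outside the rule for naming listed genes.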
